A study of Homo sapiens with 48 samples.

Results

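Metallothioneins are small cysteine-rich proteins that bind zinc, copper and cadmium. Their genes are switched on by metals through the zinc-sensing transcription factor MTF1, which binds metal response elements in their promoters, and many of them also respond to glucocorticoids and oxidants. In the intestinal epithelium they buffer zinc and copper taken up from the diet. The genes arose by repeated duplication and sit side by side, and their coding sequences are alike.

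Of 7 metallothionein genes looked up by symbol (MT1B, MT1E, MT1F, MT1G, MT1M, MT1X and MT2A), 6 were measured. MT1B, MT1E, MT1F, MT1M, MT1X and MT2A were among the 11145 genes with ribosome-protected fragments (RPFs). Of these, 4 (MT1E, MT1F, MT1X and MT2A) were also among the 11947 genes with total cytoplasmic RNA, and so among the 10836 genes for which log2 translation efficiency (TE, the RPF value less the total RNA value of a lysate, both log2) could be formed. MT1G was in neither table. The genes were chosen by name with a result of these libraries in view, the lower RPFs of MT1B after induction of the control shRNA. Comparisons of MT1B RPFs whose estimate uses the control libraries are therefore given as values without a test. Tests of its change within a knockdown line use those libraries only for the spread and the week terms.

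The libraries came from SW480, a human APC-mutant colorectal cancer line, transduced with DOX-inducible shRNAs, so all groups carry an inducible shRNA vector. shCTRL is non-targeting, shEIF2B1 lowers eIF2Bα and shEIF2B4 lowers eIF2Bδ, subunits of the exchange factor that senses phosphorylated eIF2α. Each line was grown for 5 days with DMSO (-DOX) or with DOX at 1 µg/ml (+DOX). Lysates of 4 replicates were collected in separate weeks, which gave 6 groups, 24 lysates and 48 libraries. DOX and the induced shRNA cannot be told apart within a line. The change in shCTRL serves as the correction for DOX and for induction of a non-targeting shRNA. The effect of the targeting shRNA stays in the corrected response. EIF2B1 was lower at +DOX in 4 of 4 weeks in the shEIF2B1 line (mean -0.88 log2 in total RNA, -0.72 in RPFs), and so was EIF2B4 in the shEIF2B4 line (-0.57 and -0.64). Of 7 colorectal epithelial markers 6 were in both tables, with VIL1 in neither, and 0 of 3 fibroblast, 0 of 3 leukocyte and 0 of 2 endothelial markers were in either. Values are regularized log2 (rlog) values, which hold no read counts, so the depth behind them is unknown. Medians of the shEIF2B4 RPF columns lay between 6.84 and 6.97, below all columns of the other lines (6.98 to 7.12).

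The members lie in one cluster on chromosome 16 of GRCh38 (GENCODE v29), all on the plus strand except MT1G. MT2A is at chr16:56608199-56609497, MT1E at chr16:56625475-56627112, MT1M at chr16:56632233-56633986, MT1B at chr16:56651899-56653204, MT1F at chr16:56657694-56660698, MT1G at chr16:56666731-56668065 and MT1X at chr16:56682424-56684196. MT1A, a further metallothionein in both tables, lies between MT1M and MT1B at chr16:56638666-56640087. The transcripts used for MT1F, MT1M, MT1X and MT2A each code for 183 bases without the stop codon, in 3 exons of 28, 66 and 89 coding bases. The transcript deposited for MT1E, MT1E-203, codes for only 117 bases in 2 exons and skips the 66-base middle coding exon (chr16:56626466-56626531) that MT1E-201 holds. The transcript of MT1B, MT1B-202, ends its middle coding exon 2 bases earlier than MT1B-201 does (64 against 66 bases), and its annotated coding sequence then runs to 210 bases instead of 183.

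How alike the copies are decides how far a footprint of about 30 bases can be assigned to 1 gene, so the most and the least shared stretches are shown. In the middle coding exon, bases 33 to 62 were the most alike window of 30 bases. MT2A, MT1E-201, MT1M, MT1A, MT1F and MT1X hold the same 30 bases there, and MT1B differs at 1 base, in capitals:
MT2A, chr16:56609024-56609053, plus strand: tgcaaagagtgcaaatgcacctcctgcaag
MT1B, chr16:56652603-56652632, plus strand: tgcaaagagtgcaaatgTacctcctgcaag

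In the last coding exon, bases 49 to 78 were the least alike window, with a mean of 25.1 of 30 bases identical over 21 pairs and no identical pair. Capitals mark a base that differs from the commonest base at that position among the 7 genes:
MT2A, chr16:56609311-56609340, plus strand: gcAtctgcaaaggggcgtcGgaCaagtgca
MT1E, chr16:56626928-56626957, plus strand: gcgtctgcaaaggggcAtcGgagaagtgca
MT1M, chr16:56633799-56633828, plus strand: gTgtctgcaaagggAcgtTGgagaaCtgca
MT1A, chr16:56639907-56639936, plus strand: gcAtctgcaaaggggcAtcagagaagtgca
MT1B, chr16:56653022-56653051, plus strand: gTgtctgcaaaggCTcAtcagagaagtgcC
MT1F, chr16:56659121-56659150, plus strand: gTgtTtgcaaaggggcgtcagagaagtgca
MT1X, chr16:56684006-56684035, plus strand: gcAtctgcaaagggAcgtcagaCaagtgca

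Of all 30-base stretches in a member's coding sequence, the share found without mismatch in the transcript of another metallothionein of the RPF table was largest for MT1X (48.7% of 154), followed by MT2A (35.1%), MT1M (26.6%), MT1F (22.7%) and MT1E-203 (14.8% of 88), and was smallest for MT1B (4.97% of 181). With up to 2 mismatches the share was between 46.4% (MT1B) and 87.0% (MT2A). MT1X and MT2A shared 52 stretches with each other, the most of any pair of members. The full coding sequence of MT1E-201 holds 94 stretches that MT1E-203 lacks, and 81 of these match another metallothionein of the table within 2 mismatches, 58 of them MT1A. For MT1G, which the tables do not hold, 55.8% of the stretches of MT1G-202 occur without mismatch in those transcripts. Values of single members in the RPFs are therefore uncertain where footprints could have been placed on a neighbouring copy, and how such reads were placed was not given in the sources used here.

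Among the members, promoters of MT2A, MT1B and MT1X were given in the RefSeq table (GRCh38.p14, 250 bases before to 50 bases after the start). Cores of the metal response element, searched as TGCACNC and TGCGCNC on both strands, which cannot overlap on one strand at the same start, occurred 8 times in the promoter of MT2A, 4 times in that of MT1X and 3 times in that of MT1B. The same search found 8 cores in the promoter of MT1H and 3 in that of MT4, neither of which was measured here. Of 35116 promoters of 300 bases, 29.6% held at least 1 core, 2.30% at least 3 and 0.601% at least 4. MTF1 is known to act on this family through metal response elements. The core nearest upstream of each start, chosen by its position only, is shown in capitals:
MT2A, chr16:56608567-56608591, plus strand: ttgccgcgcTGCACTCcaccacgcc
MT1B, chr16:56651824-56651848, plus strand: cggggcctcTGCACCCcaccacctc
MT1X, chr16:56682408-56682432, plus strand: cggggcctcTGCGCCCggccctctt
A core begins 8 bases before the start of MT2A and 53 bases before the starts of MT1B and MT1X. A match describes these letters only and is no measured binding site.

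Corrected for coding length (mean rlog RPFs minus log2 of the coding length in kb), MT2A had the highest level of the family at 14.8, above 99.9% of 10848 genes, followed by MT1E at 14.3, MT1A at 14.1, MT1X at 12.5 and MT1F at 11.8. MT1B stood at 9.51 (percentile 87.0) and MT1M at 6.81 (percentile 54.7). MT1HL1, a metallothionein copy on chromosome 1, and MT3, best known from the brain, were measured in RPFs only, at 8.39 and 5.81 on this scale, while MT1H, MT1L and MT4 were in neither table.

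In total RNA the order per transcript length differed. MT1E was highest at 14.2 (percentile 99.6), then MT2A at 11.0 (96.5), MT1X at 9.65 (91.3), MT1F at 7.34 (64.5) and MT1A at 6.61 (51.2). The difference between both per-length levels was 0.0985 for MT1E, close to the median of 0.206 over 10548 genes. For MT1X it was 2.86, for MT2A 3.75, for MT1F 4.46 and for MT1A 7.53, the last at percentile 99.99. MT1A thus carried RPFs near the level of MT1E with total RNA near the middle of all genes. Of the 94 stretches of MT1E-201 that MT1E-203 lacks, 58 match MT1A within 2 mismatches, but this was counted for no other single copy. Without mismatch, MT1E-201 shares 21 stretches with MT1F, 19 with MT1M, 15 with MT1B, 13 with MT1X and 12 with MT1A. It shares 5 with MT1HL1, 4 with MT2A and 3 with MT3. The part of shared stretches in the RPF level of MT1A was not tested.

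The first question was whether metallothionein RNA changed when eIF2B was knocked down. In total RNA, MT2A, MT1E and MT1X were lower at +DOX than at -DOX in both knockdown lines, in every week, while MT1F was slightly higher. Bulk libraries cannot tell fewer cells with a transcript from less of it per cell. The same genes were also lower on average in induced shCTRL, by less, and after correction for shCTRL no member passed the test in either line.

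MT2A, the most widely expressed metallothionein, showed the largest fall. In the shEIF2B1 line its total RNA was 10.42, 10.69, 11.24 and 10.89 at -DOX (replicates 1 to 4) and 9.90, 10.18, 9.54 and 10.19 at +DOX. In the shEIF2B4 line it was 10.79, 10.98, 10.85 and 11.22 at -DOX and 10.10, 10.45, 10.11 and 10.15 at +DOX. In neither line did the -DOX and +DOX groups overlap, and replicate 3 gave the widest step in shEIF2B1. For this and later mentions of separate groups, the share of all genes with separate groups was not counted. In total RNA, 41% of all genes passed the test of the change within shEIF2B1 and 38.8% within shEIF2B4. In shCTRL the values were 10.68, 10.95, 12.19 and 10.94 at -DOX and 10.29, 11.34, 11.35 and 10.30 at +DOX, so that these groups overlapped, with replicate 3 at -DOX the highest of all 24 libraries and replicate 2 moving up.

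The change in MT2A total RNA was -0.86 ± 0.23 (SE of the fit over 16 libraries) within shEIF2B1 (limma, adjusted p = 0.0092) and -0.75 ± 0.22 within shEIF2B4 (limma, adjusted p = 0.015). The mean change in shCTRL was -0.37 ± 0.54 (SD, n = 4). Corrected for shCTRL, the responses were -0.49 ± 0.33 (limma, adjusted p = 0.52) and -0.38 ± 0.31 (limma, adjusted p = 0.57). Without replicate 3 the change within shEIF2B1 was -0.58 (limma, adjusted p = 0.021).

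MT1E had the highest total RNA of the family. In shEIF2B1 it was 12.55, 12.76, 13.02 and 12.94 at -DOX and 12.10, 12.05, 12.02 and 12.53 at +DOX. In shEIF2B4 it was 12.63, 12.80, 12.63 and 13.26, then 12.25, 12.29, 12.48 and 12.46. The groups were separate in both lines. In shCTRL the values were 12.56, 12.72, 13.28 and 13.12 at -DOX and 12.42, 12.64, 12.68 and 12.66 at +DOX, lower in all 4 weeks but with overlapping groups.

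Within shEIF2B1 MT1E fell by 0.64 ± 0.11 (limma, adjusted p = 0.00025) and within shEIF2B4 it fell by 0.46 ± 0.11 (limma, adjusted p = 0.0043), against a mean change of -0.32 ± 0.26 (SD, n = 4) in shCTRL. The corrected responses were -0.32 ± 0.15 (limma, unadjusted p = 0.048, adjusted p = 0.32) and -0.14 ± 0.15 (limma, adjusted p = 0.70).

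MT1X, a copy expressed in many tissues, moved like MT2A. In shEIF2B1 it was 8.36, 8.30, 8.95 and 8.66 at -DOX and 8.02, 8.04, 7.45 and 8.00 at +DOX, and in shEIF2B4 8.65, 8.68, 8.92 and 8.98, then 8.15, 8.12, 7.95 and 8.02. Again both pairs of groups were separate. In shCTRL it was 8.76, 8.72, 9.79 and 8.81, then 8.39, 8.92, 9.26 and 8.11. The change was -0.69 ± 0.21 within shEIF2B1 (limma, adjusted p = 0.018) and -0.75 ± 0.18 within shEIF2B4 (limma, adjusted p = 0.0044), and -0.35 ± 0.39 (SD, n = 4) on average in shCTRL. Without replicate 3 the first of these was -0.42 (limma, adjusted p = 0.057). Corrected responses were -0.34 ± 0.30 and -0.40 ± 0.25 (limma, adjusted p = 0.64 and 0.45), and without replicate 3 the first of them was -0.13 (limma, adjusted p = 0.84).

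MT1F went the other way. Its total RNA in shEIF2B1 was 6.50, 6.65, 6.69 and 6.48 at -DOX and 6.70, 6.92, 6.82 and 7.07 at +DOX, without overlap. In shEIF2B4 it was 6.74, 6.68, 6.52 and 6.75, then 6.70, 7.03, 6.91 and 6.82, which overlapped. The rise of 0.30 ± 0.09 within shEIF2B1 passed the test (limma, adjusted p = 0.016) but not without replicate 4, where it was 0.20 (limma, adjusted p = 0.15). The change of 0.19 ± 0.09 within shEIF2B4 did not pass (limma, adjusted p = 0.12), nor did the corrected responses of 0.21 ± 0.13 and 0.11 ± 0.13 (limma, adjusted p = 0.45 and 0.72).

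**Figure D1:**
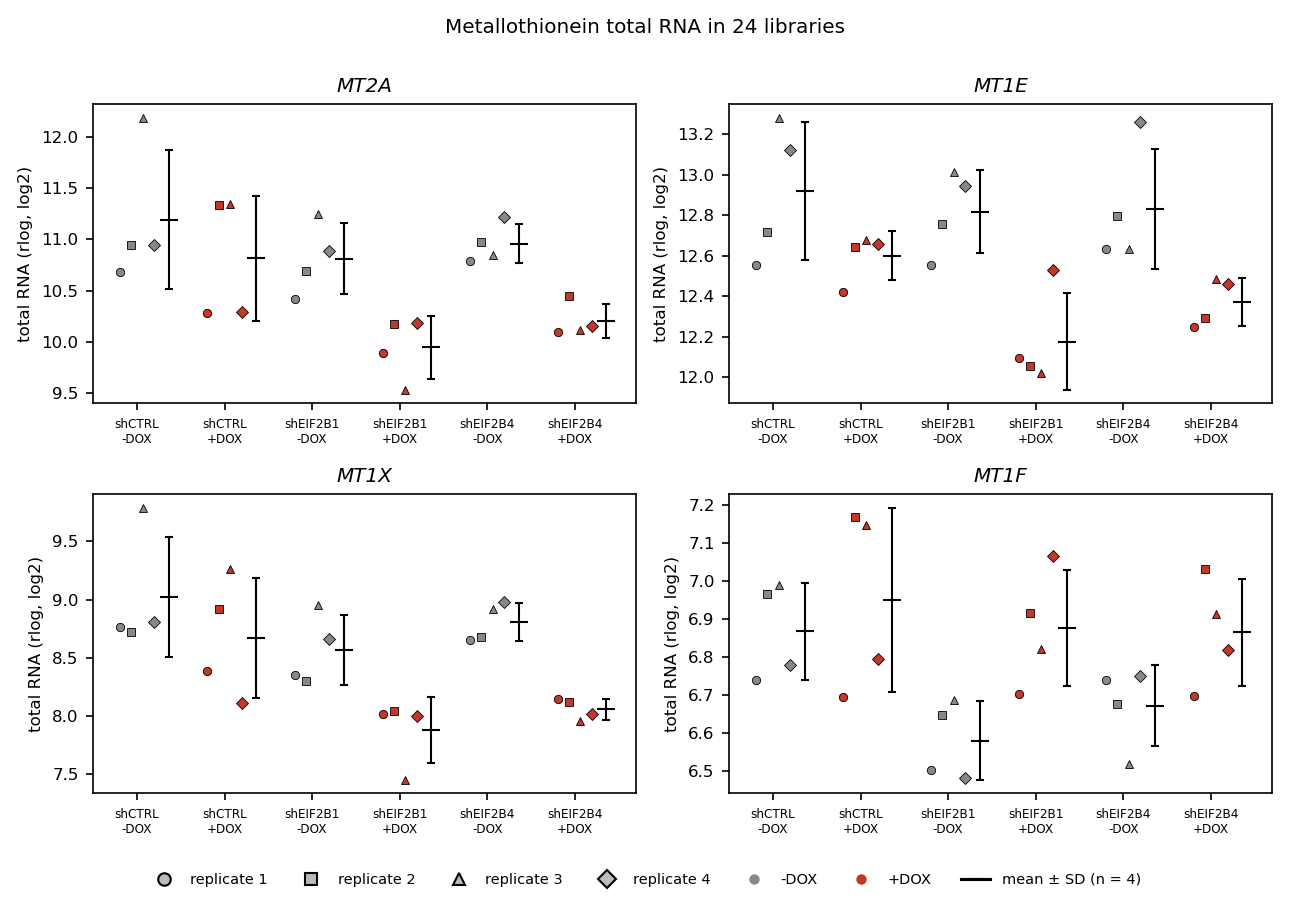
Total RNA (rlog, log2, y axis) of MT2A, MT1E, MT1X and MT1F in the 6 groups (x axis), with 1 symbol shape per replicate and the mean ± SD of 4 replicates beside each group. For MT2A, MT1E and MT1X all +DOX points lie below all -DOX points in shEIF2B1 and shEIF2B4 but not in shCTRL, and for MT1F the +DOX points of shEIF2B1 lie above. The share of all genes with such separate groups was not counted.

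Within shEIF2B1, 4 of 4 members passed the test in total RNA, 3 lower and 1 higher, where 41% of all 11947 genes did (20.4% lower and 20.6% higher). Within shEIF2B4, 3 of 4 passed, all lower, against 38.8% of all genes (18.6% lower). Median changes of the members were -0.67 and -0.60, against -0.0069 and -0.0015 over all genes. After correction for shCTRL, 0 of 4 members passed in shEIF2B1 (limma, 1 of 4 at an unadjusted p under 0.05) and 0 of 4 in shEIF2B4 (0 of 4 unadjusted), where 3.47% and 5.4% of all genes passed. The 2 knockdowns were also compared directly: 0 of 4 members differed (0 of 4 unadjusted), where 0.1% of all genes did, and the differences ran from -0.18 ± 0.15 for MT1E to 0.10 ± 0.13 for MT1F. Coding length moved with the changes within the lines: of 461 genes with a coding length of up to 300 bases outside the family, 28.6% were lower within shEIF2B1 and 28.9% within shEIF2B4, with medians of -0.072 and -0.064. In shCTRL the median of these genes was -0.076. Corrected for shCTRL, their medians were -0.011 and -0.0056, with 0% and 0.65% lower. In the 82 of these genes that also held at least 60% GC, as the members do, the medians within the lines were 0.033 and -0.048, with 19.5% and 30.5% lower. The members' coding lengths are 117 to 183 bases here, and the part of length and GC content in their changes was not tested.

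Next, RPFs were examined, which report ribosomes on the coding sequence. MT1B, MT1E and MT1X were lower at +DOX in at least 3 of 4 weeks of either knockdown line. For MT1E, MT1X and MT2A the changes were nearer to 0 than in total RNA, and the -DOX and +DOX groups overlapped for every member in every line.

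MT1B, whose RPFs entered the choice of genes, was 8.37, 7.68, 8.32 and 7.87 in uninduced shCTRL and 7.98, 6.83, 7.14 and 6.92 in induced shCTRL. It was lower in all 4 weeks, by 0.40 to 1.18, with a mean change of -0.85 ± 0.33 (SD, n = 4), and the groups still overlapped because replicate 1 stayed high after induction. In shEIF2B1 it was 7.63, 7.35, 7.59 and 6.67, then 7.64, 6.83, 6.83 and 6.58. In shEIF2B4 it was 8.18, 7.26, 6.52 and 7.05, then 7.55, 6.90, 6.35 and 6.15. Uninduced MT1B was thus highest in shCTRL on average (8.06 ± 0.34 against 7.31 ± 0.44 in shEIF2B1 and 7.25 ± 0.69 in shEIF2B4, SD, n = 4), and after induction the means were 7.22, 6.97 and 6.74. Within the knockdown lines the changes were -0.34 ± 0.14 (limma, adjusted p = 0.058) and -0.52 ± 0.19 (limma, adjusted p = 0.078). Minus the change in shCTRL they became 0.51 ± 0.20 and 0.33 ± 0.27, given without a test.

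MT1E RPFs in shEIF2B1 were 11.36, 10.75, 11.45 and 11.43 at -DOX and 11.06, 10.82, 10.67 and 11.08 at +DOX, and in shEIF2B4 11.68, 10.82, 11.38 and 11.53, then 11.32, 10.50, 11.24 and 10.83. Groups overlapped in both lines, and replicate 2 was low at -DOX in each. In shCTRL they were 11.36, 11.26, 11.98 and 11.52, then 11.22, 11.19, 11.50 and 11.19. Changes were -0.34 ± 0.13 within shEIF2B1 (limma, adjusted p = 0.042) and -0.38 ± 0.14 within shEIF2B4 (limma, adjusted p = 0.078), and -0.26 ± 0.19 (SD, n = 4) on average in shCTRL.

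MT1X RPFs were 10.22, 9.67, 10.41 and 10.03, then 9.75, 9.81, 9.39 and 9.81 in shEIF2B1, where only replicate 2 did not fall. They were 10.31, 9.80, 10.06 and 10.12, then 10.18, 9.46, 10.06 and 9.54 in shEIF2B4. In shCTRL they were 10.31, 10.38, 10.87 and 10.50, then 10.18, 10.24, 10.42 and 10.12. The change of -0.39 ± 0.13 within shEIF2B1 passed (limma, adjusted p = 0.025), and the change of -0.26 ± 0.13 within shEIF2B4 did not (limma, adjusted p = 0.19). The mean change in shCTRL was -0.27 ± 0.16 (SD, n = 4).

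MT2A, whose RNA moved most, showed little change in RPFs. In shEIF2B1 they were 12.42, 11.66, 12.57 and 12.00, then 12.56, 12.04, 12.03 and 11.83, up in replicates 1 and 2 and down in 3 and 4. In shEIF2B4 they were 13.34, 11.80, 11.97 and 12.07, then 12.56, 11.74, 12.13 and 11.76. In shCTRL they were 12.92, 12.37, 13.16 and 12.45, then 12.45, 12.40, 12.77 and 12.23. The changes of -0.05 ± 0.13 and -0.25 ± 0.19 did not pass (limma, adjusted p = 0.79 and 0.40), and the mean in shCTRL was -0.26 ± 0.22 (SD, n = 4).

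MT1F RPFs ranged from 8.19 to 10.72 over the 24 libraries and MT1M from 3.58 to 5.53, the lowest member. Their changes within the knockdown lines were between -0.24 ± 0.20 and 0.18 ± 0.15 for MT1F (limma, adjusted p = 0.44 and 0.36) and 0.06 ± 0.17 and 0.14 ± 0.15 for MT1M (limma, adjusted p = 0.79 and 0.55). MT1M was the single member with higher RPFs in all 4 weeks of shCTRL induction, by 0.16 to 0.43, with overlapping groups.

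**Figure D2:**
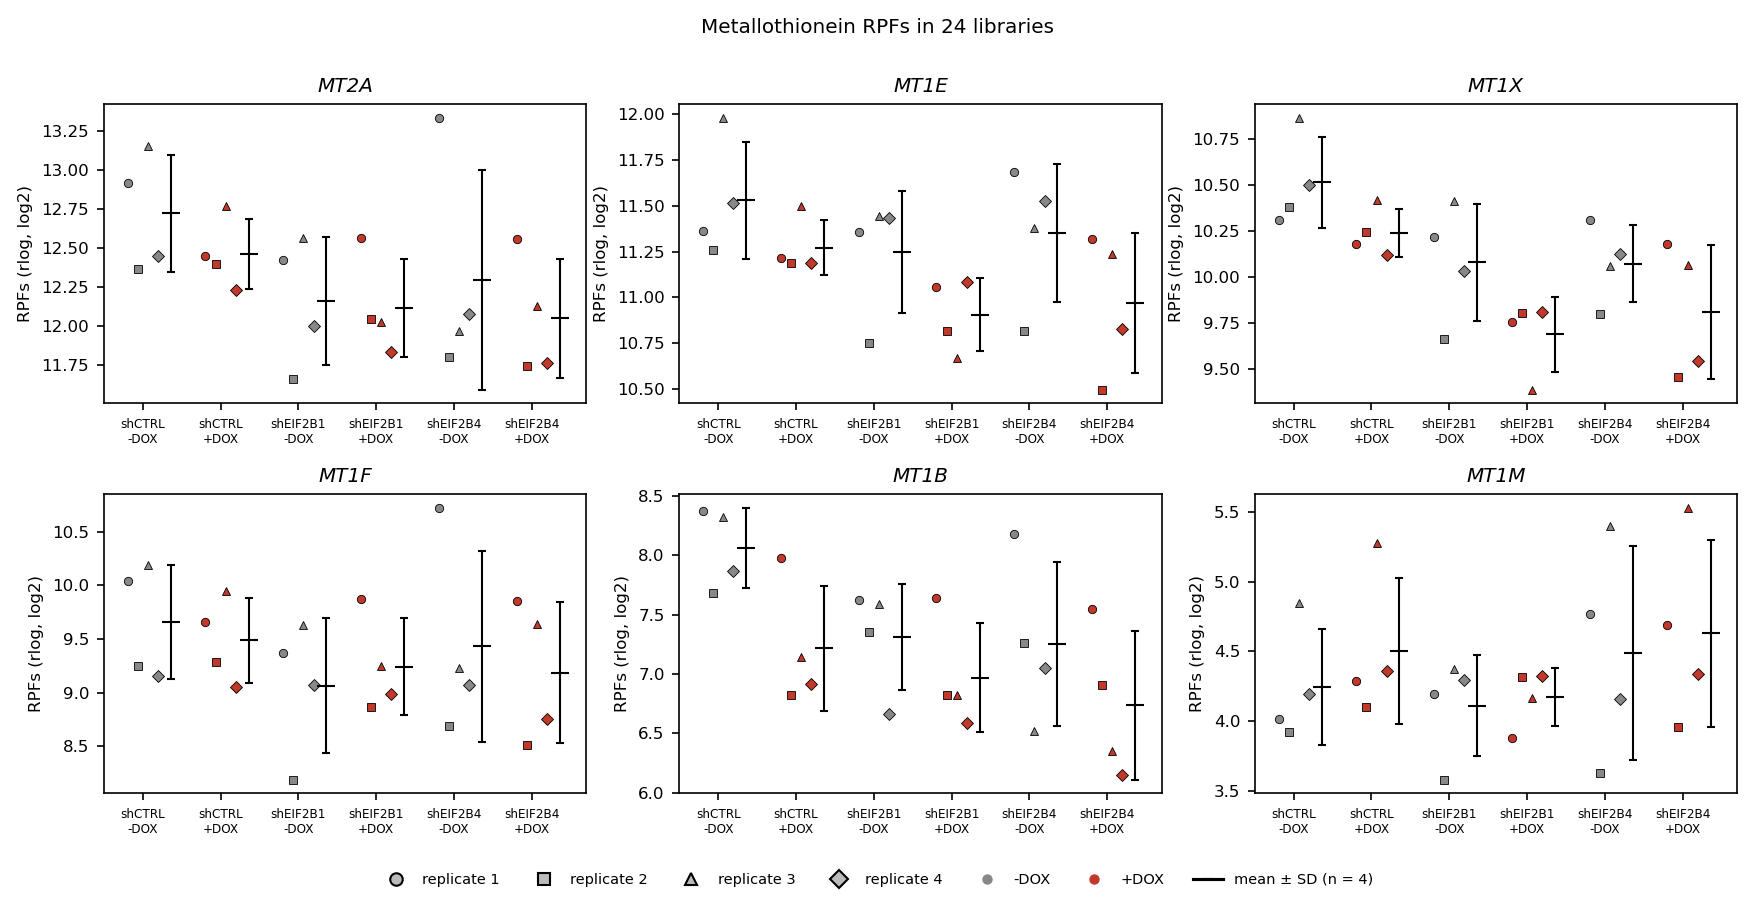
RPFs (rlog, log2, y axis) of the 6 measured members in the 6 groups (x axis), with 1 symbol shape per replicate and the mean ± SD of 4 replicates beside each group. For MT2A and MT1F replicates 1 and 3 tend to lie above replicates 2 and 4, with weekly means of MT1F at 9.92, 8.80, 9.65 and 9.01, and the -DOX and +DOX points overlap in every line.

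Within shEIF2B1, 3 of 6 members passed in RPFs (MT1B, MT1E and MT1X, all lower), where 50.7% of all 11145 genes passed and 27.2% were lower. Within shEIF2B4, 2 of 6 passed (MT1B and MT1E, both lower), where 23.4% of all genes passed and 11.4% were lower. These calls were lost when certain weeks were left out, although MT1B and MT1E were lower in 4 of 4 weeks of shEIF2B4. Without replicate 3, 1 of 6 passed within shEIF2B1, MT1F at 0.37 (limma, adjusted p = 0.093), while MT1X was -0.18, MT1E -0.20 and MT1B -0.20. Without replicate 2 and without replicate 4, 0 of 6 passed within shEIF2B4, and without the replicate block 0 of 6 passed in either line. Corrected for shCTRL, 0 of 5 tested members passed in either line (limma, 0 of 5 unadjusted in each), where 27.3% of all genes passed in shEIF2B1 and 2.75% in shEIF2B4. The corrected responses ran from -0.20 ± 0.24 for MT1M to 0.35 ± 0.21 for MT1F in shEIF2B1 and from -0.12 ± 0.20 for MT1E to 0.01 ± 0.27 for MT2A in shEIF2B4. Between the knockdowns 0 of 6 members differed (limma, 0 of 6 unadjusted), against 0.00897% of all genes.

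High coding GC content, which moved with RPF responses across genes, is shared by the family. The members' coding sequences hold 60.5% to 65.0% GC, against a median of 52.5% over the genes of the RPF table. The 2597 other genes with at least 60% GC had a median corrected RPF response to shEIF2B1 of 0.25, and 31.2% of them rose, whereas the 344 other genes with a coding length of up to 300 bases had a median of -0.11. In the 58 other genes that were both short and GC-rich, as every member is, the median was 0.24, with 25.9% higher and 0% lower. The 5 tested members had a median of -0.08. MT1B, which this median leaves out, had the highest corrected response of the 6 members, given without a test. The part of GC content and length in the members' responses was not tested.

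**Figure D3:**
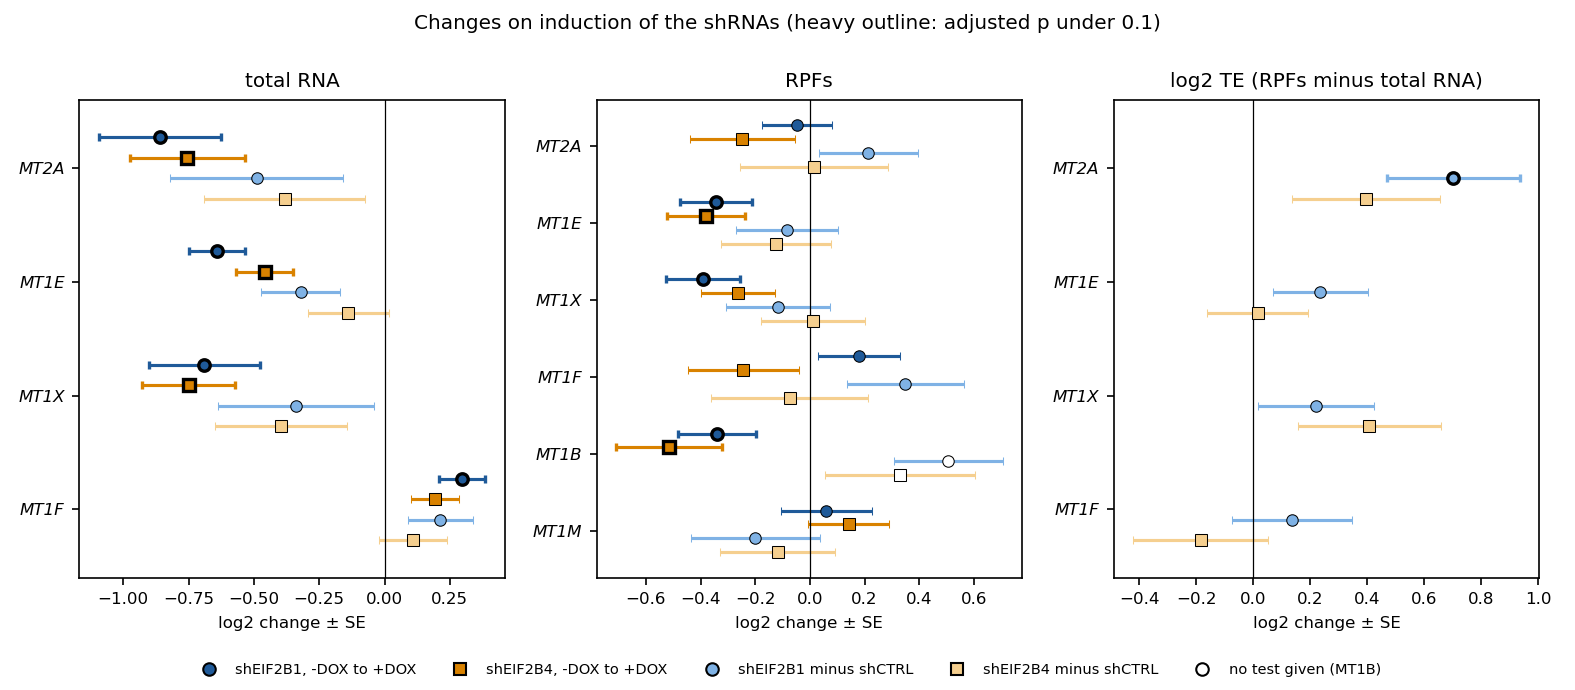
Log2 changes ± SE (x axis) of each member (y axis) in total RNA, RPFs and log2 TE, as the change from -DOX to +DOX within each knockdown line and as that change minus the change in shCTRL, with log2 TE shown only minus shCTRL. Points with a heavy outline passed an adjusted p under 0.1, and open points (MT1B minus shCTRL) have no test. In total RNA MT2A, MT1E and MT1X lie between -0.86 and -0.46 before correction and between -0.49 and -0.14 after it, and among the TE points MT2A in shEIF2B1 lies highest at 0.70.

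RNA and RPFs were then set against each other. Within shEIF2B1, MT2A changed by -0.86 in total RNA and by -0.05 in RPFs, where the latter did not pass. In shCTRL its mean changes were -0.37 and -0.26. Corrected for shCTRL, MT2A passed in neither measure, while its log2 TE rose by 0.70 ± 0.23 in shEIF2B1 (limma, adjusted p = 0.095). In the 4 weeks the change in log2 TE of MT2A was 0.67, 0.89, 1.17 and 0.53 within shEIF2B1, and -0.08, -0.36, 0.45 and 0.42 in shCTRL. It was the single one of 4 members to pass in shEIF2B1, where 7.1% of genes passed and 2.97% rose, and the call was lost whichever replicate was left out, at values between 0.52 and 0.90 (limma, adjusted p between 0.14 and 0.31). In shEIF2B4 the corrected TE response of MT2A was 0.40 ± 0.26 and that of MT1X 0.41 ± 0.25 (limma, adjusted p = 0.41 and 0.38), and 0 of 4 members passed (0 of 4 unadjusted), where 0.0923% of genes did. MT1E changed by 0.24 ± 0.17 and 0.02 ± 0.18, and MT1F by 0.14 ± 0.21 and -0.18 ± 0.24 (limma, adjusted p between 0.44 and 0.97 over these 4 values).

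Uninduced lines were compared because the change in each line starts from there. At -DOX, 4 of 5 tested members had lower RPFs in shEIF2B1 than in shCTRL, where 45.9% of all genes differed and 20.6% were lower, and 0 of 5 without the replicate block. MT1F differed by -0.59 ± 0.15, at 9.06 ± 0.63 against 9.66 ± 0.53 (SD, n = 4; limma, adjusted p = 0.0057 for the difference). The difference from shCTRL was -0.56 ± 0.13 for MT2A (limma, adjusted p = 0.0032), -0.43 ± 0.13 for MT1X and -0.28 ± 0.13 for MT1E (limma, adjusted p = 0.018 and 0.098). MT1M differed by -0.13 ± 0.17 (limma, adjusted p = 0.55). In uninduced shEIF2B4, 1 of 5 passed, MT1X at -0.44 ± 0.13 (limma, adjusted p = 0.039), where 26.6% of all genes passed and the median of all genes was itself -0.13. When library medians were set equal, 0 of 5 passed there. In total RNA 0 of 4 members passed in shEIF2B1 (limma, 2 of 4 at an unadjusted p under 0.05, MT1F and MT1X) and 0 of 4 in shEIF2B4 (1 of 4 unadjusted, MT1F), where 0.00837% and 1.69% of all genes did. Uninduced shCTRL is also the baseline of the corrected responses, so these comparisons share libraries.

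The week of collection carried much of the variation in footprints. Of the 5 members tested in RPFs, MT1B left out, 5 varied between weeks (limma F-test over 24 libraries, adjusted p between 3.9e-06 for MT1F and 0.082 for MT1X), where 79.4% of all genes did. Without replicate 2, 3 of these 5 passed. Weekly means of MT1F RPFs were 9.92, 8.80, 9.65 and 9.01, and week explained 64.3% of its sum of squares, against 12.3% for line and treatment together. For MT2A the shares were 43.4% and 28.0%, and for MT1X 12.0% and 59.6%. The medians over all genes were 39.0% and 32.1%. In total RNA 1 of 4 members passed, MT1E (limma F-test, adjusted p = 0.028), where 16.5% of all genes did, and line and treatment explained between 49.3% (MT1F) and 63.9% (MT1X). Over the 24 total RNA libraries the SD was 0.58 for MT2A, 0.52 for MT1X and 0.34 for MT1E, above 99.5%, 99.2% and 96.9% of all genes. For MT1F it was 0.19 (percentile 71.1), against a median of 0.16 over all genes.

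Members were further compared library by library, after the mean of each replicate was subtracted. Total RNA of MT2A, MT1X, MT1E and MT1A moved together over the 24 libraries, with Pearson's r of 0.98 between MT2A and MT1X and between 0.85 and 0.98 for every pair of the 4. MT1F RNA did not follow them (r between -0.19 and 0.06), although MT1F RPFs followed MT2A RPFs at r = 0.91. MT1F RPFs correlated with MT1F RNA at 0.54 and with MT2A RNA at 0.56. MT1M RPFs were apart from the others, with r from -0.35 with MT1B to 0.32 with MT1F. These values describe libraries that share lysates, weeks and normalization, and reads of copies with shared stretches.

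**Figure D4:**
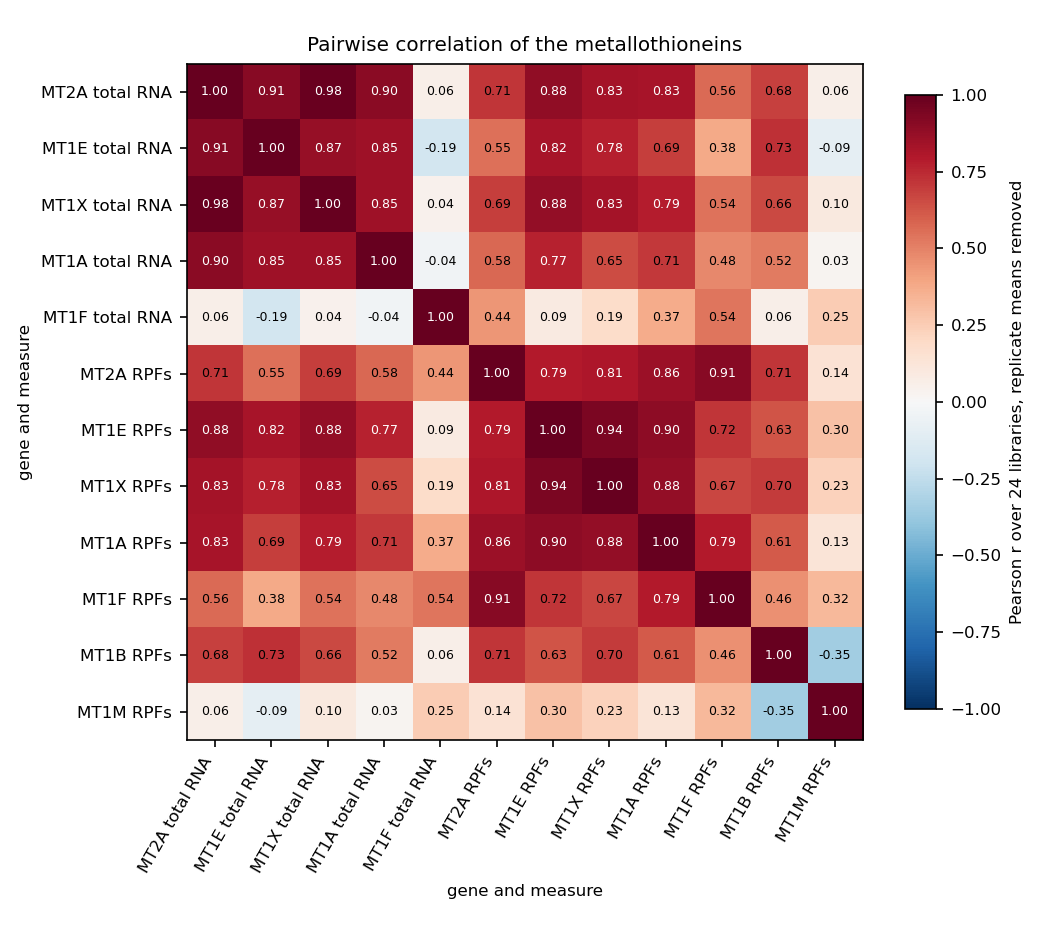
Pearson's r over 24 libraries, with each replicate's mean subtracted, between the metallothioneins in total RNA and in RPFs (both axes list gene and measure). MT2A, MT1E, MT1X and MT1A total RNA form a block with r between 0.85 and 0.98, MT1F total RNA has r between -0.19 and 0.06 with that block, and MT1M RPFs stand apart.

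Outside the family, the genes whose total RNA most resembled the mean pattern of the 4 members over the 24 libraries were NDUFB4 (r = 0.97), COX8A (0.97), S100A10 (0.96), OST4 (0.96) and TMEM258 (0.96). Their coding sequences are 111 to 387 bases long, against a median of 1293 bases in the table. In RPFs they were UQCR10 (r = 0.94), LL0XNC01-30I4.1 (0.93), KDELR2 (0.93), COA3 (0.93) and SIVA1 (0.92). The members' own r with their mean was 0.99 for MT2A in total RNA and 0.12 for MT1F.

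The other metallothioneins measured gave few calls. MT1A total RNA in shEIF2B1 changed by -0.46 ± 0.14 (limma, adjusted p = 0.016), was lower in 4 of 4 weeks and did not overlap, and in shEIF2B4 changed by -0.33 ± 0.15 (limma, adjusted p = 0.11). The corrected responses of MT1A were -0.35 ± 0.19 and -0.22 ± 0.21 (limma, adjusted p = 0.41 and 0.64). In RPFs 0 of 3 (MT1A, MT1HL1 and MT3) passed in any of the within-line or corrected comparisons of limma (0 of 3 at an unadjusted p under 0.05), with changes between -0.55 ± 0.28 for MT3 and 0.28 ± 0.19 for MT1HL1. Of all genes, 50.7% passed in RPFs within shEIF2B1 and 23.4% within shEIF2B4, and 27.3% and 2.75% after correction.

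MTF1, the factor that activates metallothionein genes when zinc is high, was lower in RPFs of induced shEIF2B1 in 4 of 4 weeks without overlap of the groups. The change was -0.52 ± 0.11 (limma, adjusted p = 0.00056), against a mean of -0.20 ± 0.17 (SD, n = 4) in shCTRL, and the corrected response was -0.32 ± 0.15 (limma, adjusted p = 0.13). In total RNA it changed by -0.16 ± 0.07 within shEIF2B1 (limma, adjusted p = 0.082), as in shCTRL (-0.15 ± 0.05, SD, n = 4). Within shEIF2B4 MTF1 changed by -0.09 ± 0.12 in RPFs and -0.09 ± 0.07 in total RNA (limma, adjusted p = 0.62 and 0.36). SLC30A1, a zinc exporter that MTF1 also activates, had a change of 0.25 ± 0.10 in total RNA of induced shEIF2B4, which passed (limma, adjusted p = 0.074). By week it was 0.12, -0.016, 0.79 and 0.094, the groups overlapped, and without replicate 3 it was 0.067 (limma, adjusted p = 0.60) and without replicate 4 it was 0.30 (limma, adjusted p = 0.12). Corrected for shCTRL it was 0.40 ± 0.14 (limma, adjusted p = 0.15). In shEIF2B1 the exporter changed by -0.18 ± 0.13 in total RNA (limma, adjusted p = 0.30).

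Among 25 zinc regulation genes (MTF1 and the SLC30 and SLC39 transporters), 18 were measured in RPFs and 19 in total RNA. Corrected for shCTRL, 7 of 18 passed in RPFs of shEIF2B1, 5 higher and 2 lower, where 27.3% of all genes passed, with a median of 0.17 against -0.011 over all genes. Largest were SLC39A4, a zinc importer of the intestinal epithelium, at 0.67 ± 0.17, SLC30A3 at 0.67 ± 0.16 and SLC39A13 at 0.47 ± 0.14 (limma, adjusted p = 0.012, 0.0093 and 0.021). In shEIF2B4 1 of 18 passed, against 2.75% of all genes, the importer SLC39A10 at -0.63 ± 0.16 (limma, adjusted p = 0.064). In total RNA 0 of 19 passed after correction in either line, where 3.47% and 5.4% of all genes did, with medians of 0.055 and 0.068 (limma, 0 and 1 of 19 at an unadjusted p under 0.05).

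Of 9 copper handling genes, 3 passed in corrected RPFs of shEIF2B1, against 27.3% of all genes. The copper importer SLC31A1 rose by 0.54 ± 0.13, and the copper chaperones ATOX1 and COX17 changed by -0.51 ± 0.18 and -0.50 ± 0.17 (limma, adjusted p = 0.010, 0.051 and 0.044). SLC31A1 was the single copper gene to pass in corrected total RNA, at 0.43 ± 0.10 in shEIF2B1 (limma, adjusted p = 0.027), where 3.47% of all genes passed. In shEIF2B4 0 of 9 passed in either measure (limma, 2 of 9 in RPFs and 2 of 9 in total RNA at an unadjusted p under 0.05). There 2.75% of all genes passed in RPFs and 5.4% in total RNA. Of 7 glucocorticoid targets 5 were measured. Within each line 2 of 5 passed in total RNA, both higher. Of all genes, 41% passed there in shEIF2B1 (20.6% higher) and 38.8% in shEIF2B4. The 2 were KLF9 and TSC22D3, which rose by 0.50 ± 0.14 and 0.46 ± 0.10 in shEIF2B1 and by 0.65 ± 0.14 and 0.58 ± 0.08 in shEIF2B4 (limma, adjusted p = 0.0091, 0.0021, 0.0023 and 7.7e-05). After correction 0 of 5 passed in total RNA of either line (limma, 0 and 0 of 5 at an unadjusted p under 0.05) where 3.47% and 5.4% of all genes did, and 1 of 5 in RPFs of shEIF2B1 (27.3% of all genes), FKBP5 at -0.41 ± 0.16 (limma, adjusted p = 0.080). Of 7 oxidant and heavy metal response genes, 3 passed in corrected RPFs of shEIF2B1, all higher, where 27.3% of all genes passed and 12.1% of the 10839 genes with a known length were higher, led by the cystine transporter SLC7A11 at 0.83 ± 0.19 (limma, adjusted p = 0.0065), with SRXN1 at 0.47 ± 0.15 and HMOX1 at 0.42 ± 0.17 (limma, adjusted p = 0.040 and 0.085). SLC7A11 also passed in corrected total RNA of shEIF2B4, at 0.90 ± 0.24 (limma, adjusted p = 0.050). Of the 21 calls named outside the member list, 10 held whichever replicate was left out: MT1A in total RNA, MTF1 in RPFs, KLF9 and TSC22D3 in both lines, and SLC39A4, SLC30A3, SLC31A1 and SLC7A11 in corrected RPFs of shEIF2B1. The remaining calls were lost in at least 1 of these fits. FKBP5 and MTF1 total RNA lost theirs without any 1 replicate. SRXN1 and SLC31A1 total RNA did so without replicate 1, 3 or 4, and HMOX1, SLC39A10 and SLC7A11 total RNA without replicate 2, 3 or 4. ATOX1 lost its call without replicate 3 or 4, COX17 without replicate 1 or 4 and SLC39A13 without replicate 1.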

How the data were processed

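The 48 libraries (24 of RPFs, 24 of total RNA) were grouped by the labels, and none was left out. The authors deduplicated the reads, aligned total RNA to GENCODE v38 protein-coding transcripts with Bowtie2, quantified it with RSEM, kept the most expressed transcript per gene and counted RPFs on its coding sequence. Tools in the submitters' processing notes include R 4.3.1, cutadapt 1.18 and SAMtools 1.9. The deposited values are log2 values: the authors applied the regularized logarithm of DESeq2 to each kind of library on its own. They hold no counts, so depth is unknown, no counting interval can be given and no count test was run.

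Changes were fitted over all genes of a table in R 4.3.3 with limma 3.58.1 (lmFit, eBayes with a mean-variance trend, two-sided, Benjamini-Hochberg adjusted p under 0.1). Each fit used the 16 libraries of shCTRL and 1 knockdown line with the replicate as a block, and all 24 for the difference between knockdowns and the F-test of the replicate, from which MT1B RPFs were left out. The study's methods put the repeats of the experiment in separate weeks, and the labels number the replicates. As a check of the pairing, deviations from group means were correlated between same-numbered libraries, and r was over 0.1 in 52 of 60 pairs in RPFs, 37 of 60 in total RNA and 55 of 60 in log2 TE. The SE is that of the fitted change.

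Members and gene lists were chosen with earlier results of these data known. All metallothioneins found are named. Of the other lists, the called genes with the largest changes (at most 3 per comparison), MTF1 and SLC30A1 are named. Gene models came from GENCODE v29 on GRCh38, matched by transcript identifier without version (found for 97.3% of the RPF table and 97.1% of the total RNA table). Among the members the version was the same for MT1B and MT1E and differed for MT1F, MT1M, MT1X and MT2A. Promoters came from RefSeq. Sequences and figures used Python 3.11.15 and matplotlib 3.10.9. Alternatives were no replicate block, no trend, leaving out the 25% of genes with the lowest means, median centring, all 24 libraries in one fit, a threshold of 0.05 and each replicate left out, the last also for called genes named outside the member list, which was chosen after seeing the data.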

Additional observations from a re-analysis of the deposited data

Results flagged for a closer look

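Among 60 groups of 4 libraries (each member, measure, line and treatment), 8 held 1 library far from the other 3 by Dixon's criterion, which chance alone gives in about 1 group in 20. The groups are not independent, since members share lysates and move together, so the number of such groups cannot be tested against that rate. In RPFs, MT1E was high in replicate 3 of induced shCTRL (11.50, others 11.19 to 11.22) and low in replicate 2 of uninduced shEIF2B1 (10.75, others 11.36 to 11.45), and MT1X was low in replicate 3 of induced shEIF2B1 (9.39, others 9.75 to 9.81). In total RNA, MT1E was low in replicate 1 of induced shCTRL (12.42, others 12.64 to 12.68) and high in replicate 4 of induced shEIF2B1 (12.53, others 12.02 to 12.10). MT1X RNA was high in replicate 3 of uninduced shCTRL (9.79, others 8.72 to 8.81) and low in replicate 3 of induced shEIF2B1 (7.45, others 8.00 to 8.04), and MT2A RNA was high in replicate 2 of induced shEIF2B4 (10.45, others 10.10 to 10.15). Of these 8, 4 were in replicate 3. The causes were not tested.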

How the results depend on the processing

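Falls of MT2A, MT1E and MT1X in total RNA within both knockdown lines passed under every alternative run, the fit with no replicate block included. Corrected for shCTRL, total RNA of these genes passed in neither line under any alternative (limma, lowest adjusted p = 0.26, for MT1E in shEIF2B4). Without the block, 0 of 6 members passed in RPFs within shEIF2B1 (3 with it), 0 of 6 within shEIF2B4 (2), 0 of 5 in uninduced shEIF2B1 (4), 0 of 5 in uninduced shEIF2B4 (1) and 0 of 4 in TE of shEIF2B1 (1). The TE count of shEIF2B1 was also 0 with no mean-variance trend, with all 24 libraries in one fit and at 0.05, and 0 in each fit that left out a replicate. RPF calls within shEIF2B4 numbered 0 at 0.05 and 0 to 2 with a replicate left out, and within shEIF2B1 1 to 3. Uninduced shEIF2B4 RPFs gave 0 with median centring, 2 with all 24 libraries and 0 to 4 with a replicate left out, and the week test 0 to 2 in total RNA and 3 to 5 in RPFs. Corrected RPF responses changed sign without replicate 3 for MT1X in shEIF2B1 (range over replicates left out -0.25 to 0.036) and for MT2A and MT1X in shEIF2B4 (-0.16 and -0.14, with MT1X between -0.14 and 0.082), and without replicate 1 for MT1F in shEIF2B4 (range -0.31 to 0.066). Corrected TE did so for MT1F in shEIF2B1 without replicate 1 (-0.034, range to 0.37) and 2 (-0.0087) and for MT1E in shEIF2B4 without replicate 2 (range -0.040 to 0.058). Within shEIF2B1, RPFs of MT1M changed sign without replicate 2 (range -0.17 to 0.18) and those of MT2A without replicate 3 (range -0.19 to 0.12). None of these reversed values had passed. The causes were not tested. The rlog scale shrinks differences of low genes, MT1M is the lowest member, and no depth is known.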
